A study of Drosophila melanogaster with 36 samples.

Results

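The circadian clock of *Drosophila melanogaster* was followed in indirect flight muscle (IFM) through 9 genes. They are *Clk*, *cyc*, *per*, *tim*, *vri*, *Pdp1*, *cwo* and *cry*, which form or reset the loops of the clock, and *to* (*takeout*), which lies downstream of it. The genes were taken by symbol from a table of 16727 genes, where 9 of 9 were found, and 9 of 9 were among the 9996 genes with enough counts to be tested.

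In the fly clock, the CLK and CYC proteins pair up on DNA and activate *per* and *tim*. The PER and TIM proteins accumulate at night, enter the nucleus and shut off CLK and CYC, and with them their own genes. A connected loop runs through *vri* and *Pdp1*, also activated by CLK and CYC: VRI represses *Clk* and PDP1 activates it. CWO is a repressor that acts on the same DNA sites as CLK and CYC, and CRY is a blue-light photoreceptor that leads to the breakdown of TIM in light. *takeout* codes for a secreted protein related to juvenile hormone binding proteins, known from fly heads as a gene under both clock and food control. Peripheral organs of the fly keep clocks of their own, so that transcripts of the loops can cycle in tissues outside the brain.

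Each library was made from IFM of 10 female flies at 3 weeks of age, and each of the 6 groups had 1 library at ZT3, ZT7, ZT11, ZT15, ZT19 and ZT23 (zeitgeber time, hours from lights on, with lights off at ZT12). WT flies were Canton-S on a regular diet, HFD flies were Canton-S on a diet with added coconut oil, and *Sk2* flies carried a mutation of *Sphingosine kinase 2* and ate the regular diet. Under ALF (ad libitum feeding) food was present for 24 h. Under TRF (time-restricted feeding) it was present for the 12 h of light and replaced by agar at night. The study treated the ZT11 library of WT-TRF and the ZT23 library of *Sk2*-ALF as outliers, and the other 34 of 36 libraries were used here (n = 5 in these 2 groups and n = 6 in the others). The labels give no strain for *Sk2* flies, so that the mutation and the genetic background cannot be told apart. Nothing in the labels names a batch, and no group had a repeat at any time point, so that p-values measure the spread between libraries of different pools and times.

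Library totals ran from 3329519 to 30682673 counts (median 12765728.5), and were lower in WT than in the other models. The group medians were 8032719.5 counts in WT-ALF, 8560067 in WT-TRF, 11277916 in HFD-ALF, 20984727.5 in HFD-TRF, 16492067 in *Sk2*-ALF and 21153135.5 in *Sk2*-TRF. Transcripts of *Sk2* were at 4.94 to 16.4 CPM (counts scaled to a common library size) in the 23 WT and HFD libraries and at 1.11 to 5.48 CPM in the 11 *Sk2* libraries, lower but not absent. Flight muscle markers were abundant in sum (10 markers, together 20757 to 48097 CPM), and so were those of fat body (6 markers, 10818 to 64182 CPM). Of the fat body markers, *Fbp1* had 0 counts in 19 libraries and at most 0.28 CPM. Summed markers were at 72.4 to 779 CPM for neurons, 41.7 to 319 CPM for photoreceptors and 273 to 577 CPM for glia. They were at 326 to 888 CPM for haemocytes, 136 to 9469 CPM for gut and 0.0990 to 736 CPM for eggshell. Single markers differed: of the photoreceptor genes *norpA* was at 37.1 to 95.3 CPM. *trp* had 0 counts in 3 libraries, and *ninaE*, *Arr1* and *Arr2* fell to 0.08, 0.03 and 0.04 CPM. Of the glia genes *Eaat1* was at 219 to 512 CPM, *moody* at 36.3 to 85.7 CPM and *repo* at 5.20 to 12.3 CPM. In bulk RNA, fewer cells of a type and less RNA per cell cannot be told apart.

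The 9 genes lie on 4 chromosome arms of the dm6 build, and none of their exons overlaps another gene on the same strand. *per* is at chrX:2685580-2692780, *tim* at chr2L:3493986-3508119 and *vri* at chr2L:5288944-5311223. *Clk* (chr3L:7763233-7775603) and *Pdp1* (chr3L:7811458-7867369) lie near each other on arm 3L, where *cyc* lies at chr3L:19813770-19815938. Arm 3R holds *cwo* (chr3R:10388258-10400752), *cry* (chr3R:19212154-19215442) and *to* (chr3R:25240180-25241668). Counts were summed over all exons of a gene. For *Pdp1*, with 13 annotated transcripts from several promoters, the clock isoform is therefore not separated from the others, and the same holds for *vri* with 5 and *tim* with 10.

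Per kilobase of exon, the levels of the 9 genes in IFM spanned from a median of 3.26 CPM per kb for *Clk* to 139 CPM per kb for *to*. In order from the top, the medians were 139 for *to*, 90.0 for *vri*, 48.2 for *Pdp1*, 38.8 for *tim*, 33 for *cry*, 15.8 for *cwo*, 9.18 for *cyc*, 5.22 for *per* and 3.26 for *Clk*. The order of *vri* over *Pdp1* and of *cyc* over *per* held in 34 of 34 libraries. *to* stood above *vri* in 18 of 34 libraries and *tim* above *cry* in 20 of 34, so that these neighbours in the order did not differ beyond their spread. *Clk*, the partner of *cyc*, was the scarcest of the 9 genes by median, with 51 to 493 counts per library, and *per* stood above it in 25 of 34.

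**Figure D1:**
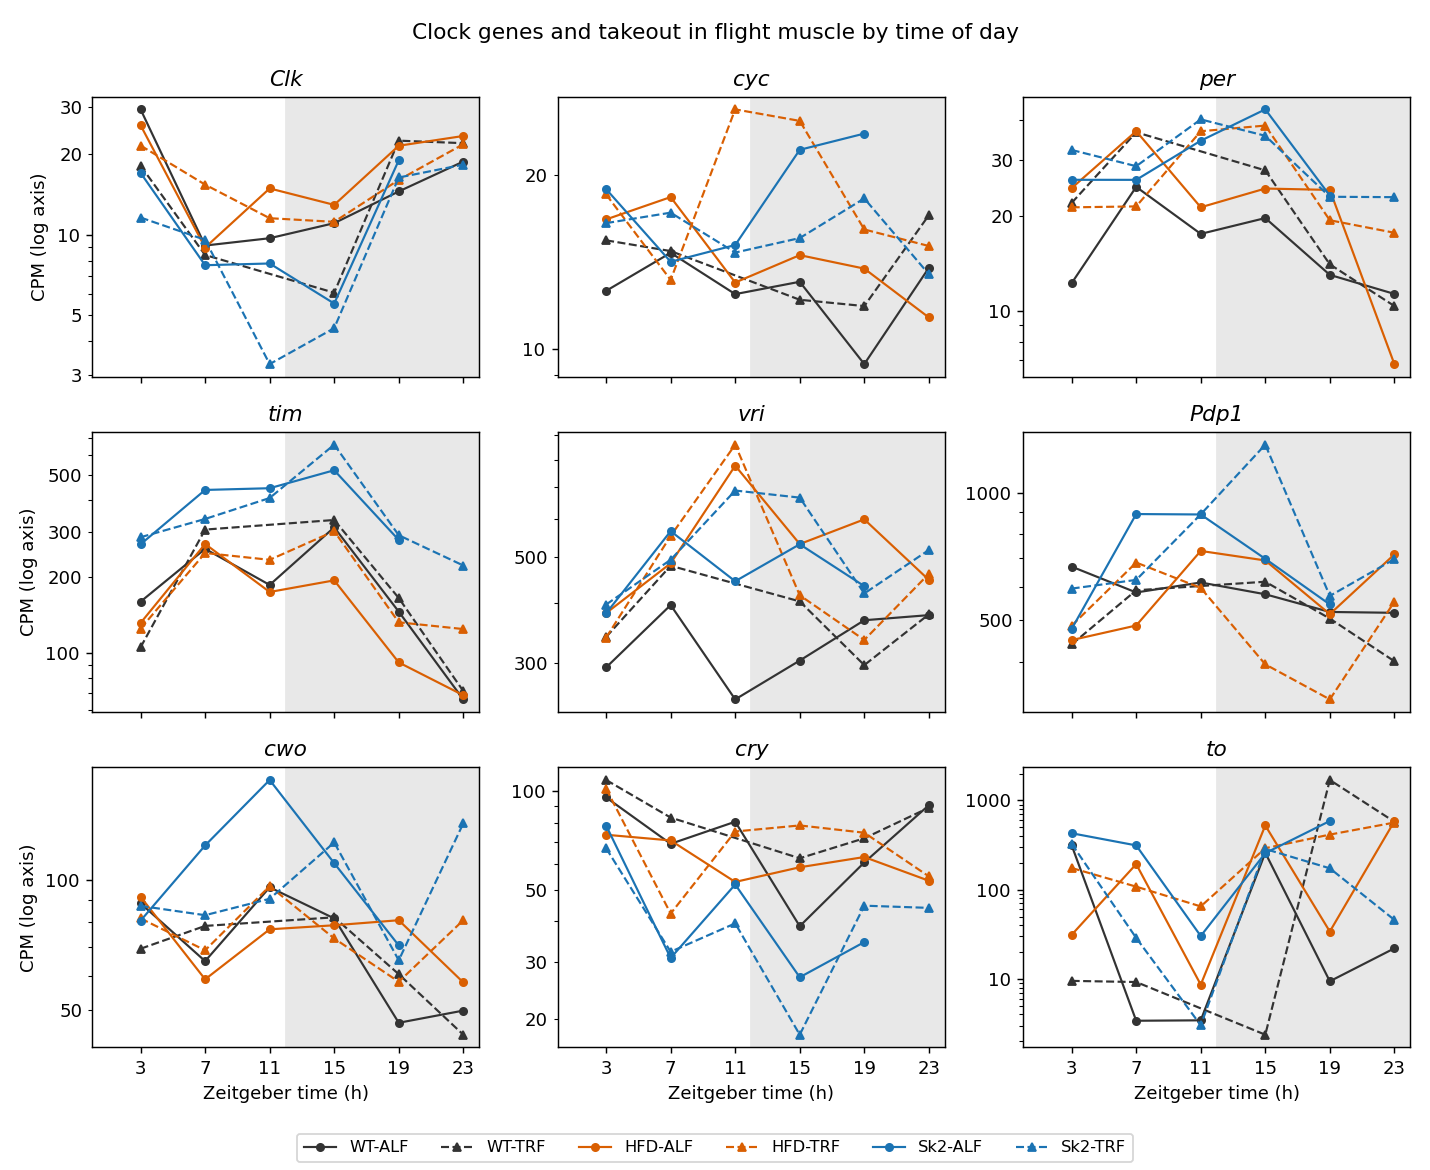
CPM of the 9 genes against zeitgeber time (log axis, 1 panel per gene); each line is 1 group, each point 1 library, and the dark phase is shaded. *tim* and *per* are lowest at ZT23 in the 5 groups measured there, *Clk* runs opposite to them, *cry* is highest at ZT3 in 6 of 6 groups, and *to* spans 2.37 to 1695 CPM.

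To ask which of the genes followed the time of day, the 6 groups served as repeats of each time point. *tim*, *Clk*, *per* and *cry* varied with time (4 of 9 genes, edgeR quasi-likelihood test, adjusted p < 0.05), beside 2.31% of all genes tested. *tim* had the smallest p of the 9996 genes. A 24-h cosine shared by the groups, which gives a peak time and a peak-to-trough difference on the log2 scale, was called for *tim*, *Clk* and *per* (3 of 9), beside 1.78% of all genes. The median peak-to-trough difference was 0.65 over the 9 genes and 0.24 over all genes tested. In the 3 ALF groups alone the time of day test called 1 of the 9 genes (*tim*), beside 3 of 9545 genes tested. In the 3 TRF groups alone it called 0, beside 0 of 9990, each over 17 libraries. Over the same libraries the cosine called 0 of the 9 genes under ALF, beside 4 of all genes. Under TRF it called *tim* and *Clk* (adjusted p = 0.0395 for each, edgeR), beside 18 of all genes. The clock genes fell into an evening set and a dawn set: *per*, *tim*, *vri*, *Pdp1* and *cwo* had fitted peaks between ZT10.0 and ZT11.4, of which those of *per* and *tim* were called, and *Clk* peaked at ZT23.5.

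Of the activators, *Clk* oscillated with a peak near dawn and *cyc* did not vary with time. *Clk* was at 18.3 to 23.4 CPM at ZT23 (median 21.8) and 11.6 to 29.4 CPM at ZT3 (median 19.8), against 4.48 to 12.9 CPM at ZT15 (median 8.56). It was above its group mean in 6 of 6 groups at ZT3, in 6 of 6 at ZT19 and in 5 of 5 at ZT23, and below it in 6 of 6 at ZT15. The fitted peak-to-trough difference was 1.61 ± 0.20 (SE, log2), with a peak at ZT23.5 ± 0.45 h (adjusted p = 1.45e-04 for the cosine and 6.27e-04 for time of day, edgeR). *cyc*, whose protein is the constant partner of CLK, ran from 9.41 to 26 CPM with medians between 13.8 and 16.6 CPM at the 6 time points. Its peak-to-trough difference was 0.08 ± 0.14 (log2, adjusted p = 0.972, edgeR), the smallest of the 9 genes.

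*per* and *tim*, the negative limb, were high from midday to early night and lowest before dawn. *tim* was at 193 to 659 CPM at ZT15 (median 323) and 65.9 to 221 CPM at ZT23 (median 71.0). It was highest at ZT15 in 5 of 6 groups, lowest at ZT23 in 5 of the 5 groups with that time point, and lowest at ZT3 in *Sk2*-ALF, where ZT23 was left out. From ZT23 to ZT15 the fit gave a 3.28-fold difference over the groups (adjusted p = 8.49e-06 for time of day, edgeR). The cosine peaked at ZT11.3 ± 0.44 h with a peak-to-trough difference of 1.57 ± 0.19 (log2, adjusted p = 1.45e-04).

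*per* moved in parallel with *tim*. It was at 19.7 to 43.3 CPM at ZT15 (median 31.8) and 6.80 to 22.9 CPM at ZT23 (median 11.3), a 2.23-fold difference in the fit. Its peak-to-trough difference was 1.06 ± 0.19 (log2) with a peak at ZT10.7 ± 0.64 h (adjusted p = 0.0103 for the cosine and 0.0147 for time of day, edgeR). Neither call was made over all 36 libraries (adjusted p = 0.0737 and 0.0620). Over 14 alternative settings, not counting fits with 1 library left out, the cosine call was lost in 6 and the time of day call in 7. Both were lost in each regimen alone and without WT-ALF, WT-TRF or HFD-TRF (adjusted p of the cosine 0.0587, 0.0657 and 0.0523 without these groups, edgeR). After centring within groups, *per* and *tim* had a Pearson r of 0.78 over the 34 libraries, which share depth and time of day, and *Clk* had an r of -0.70 with *per* and -0.76 with *tim*. The fitted peaks of *tim* and *Clk* lay 11.8 h apart.

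The sampled profile of *tim* was not a smooth cosine in the Canton-S groups. In WT-ALF it was 257 CPM at ZT7, 185 CPM at ZT11 and 312 CPM at ZT15. In HFD-ALF it was 268, 174 and 193 CPM, and in HFD-TRF 247, 233 and 301 CPM at these times. The value at ZT11 was thus below both neighbours in 3 of 3 Canton-S groups with a ZT11 library, and in 0 of the 2 *Sk2* groups, where *tim* was 437, 444 and 523 CPM under ALF and 337, 407 and 659 CPM under TRF. *per* had the same dip in WT-ALF (24.7, 17.5 and 19.7 CPM) and HFD-ALF (37, 21.3 and 24.4 CPM) and not in HFD-TRF (21.4, 37 and 38.5 CPM). With 1 library at each point, the dip was not tested.

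*vri* and *Pdp1*, the bZIP factors that control *Clk* with opposite sign, had small amplitudes that did not pass the test. *vri* was at 293 to 397 CPM at ZT3 (median 360), below its group mean in 6 of 6 groups, and at 251 to 860 CPM at ZT11 (median 689). The groups split at ZT11: *vri* was highest there in HFD-ALF (777 CPM), HFD-TRF (860 CPM) and *Sk2*-TRF (689 CPM) and lowest there in WT-ALF (251 CPM). Its peak-to-trough difference was 0.48 ± 0.16 (log2), with a fitted peak at ZT11.4 ± 1.2 h (adjusted p = 0.192, edgeR). Without the WT-ALF library at ZT11 its adjusted p for time of day went from 0.181 to 0.0477 (edgeR). That was the only call among 34 fits with 1 library left out, where the adjusted p reached 0.297. The cosine of *vri* stayed uncalled in 34 of 34 (adjusted p 0.105 to 0.409, edgeR). *Pdp1* was at 596 to 889 CPM at ZT11 (median 729), above its group mean in 5 of 5 groups, and at 326 to 571 CPM at ZT19 (median 520). Its peak-to-trough difference was 0.46 ± 0.16 (log2) with a fitted peak at ZT11.1 ± 1.2 h (adjusted p = 0.224, edgeR). The fitted peaks of *vri* and *Pdp1* were 0.30 h apart, less than the standard error of either.

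*cwo*, the E-box repressor, was at 76.9 to 171 CPM at ZT11 (median 96.3) and at 46.7 to 80.7 CPM at ZT19 (median 62.9), and it was lowest at ZT19 in 4 of 6 groups. Its peak-to-trough difference was 0.44 ± 0.17 (log2) with a fitted peak at ZT10.0 ± 1.4 h (adjusted p = 0.349, edgeR). *cry*, the photoreceptor, was highest at ZT3 in 6 of 6 groups, at 66.9 to 108 CPM (median 87.1), and lowest at ZT15 in 4 of 6, at 18 to 78.6 CPM (median 48.5). The time of day test called *cry* (1.99-fold from ZT15 to ZT3, adjusted p = 0.0397, edgeR), whereas the cosine, with a fitted peak at ZT2.57 ± 1.1 h and a peak-to-trough difference of 0.65 ± 0.19 (log2), did not (adjusted p = 0.123). The call for *cry* was lost in 15 of 34 fits with 1 library left out, with adjusted p up to 0.108 without *Sk2*-ALF at ZT3 (edgeR). It was also lost in 9 of 14 other settings. Among these were all 36 libraries (adjusted p = 0.147), ALF groups only (0.608) and TRF groups only (0.849, edgeR).

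**Figure D2:**
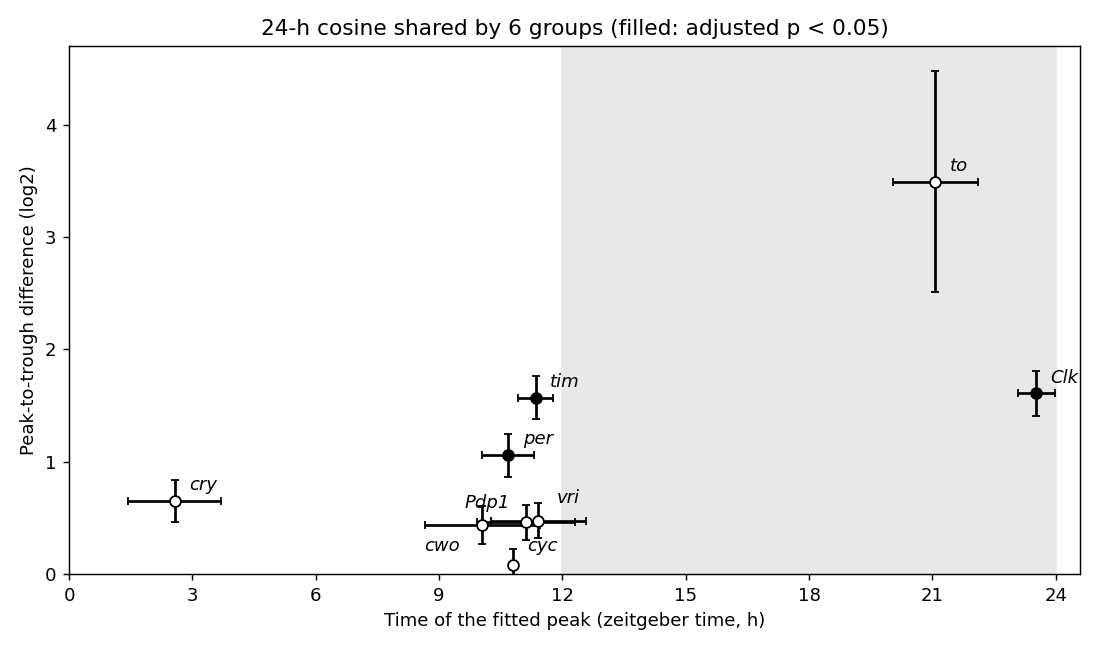
Peak-to-trough difference (log2, vertical axis) against the time of the fitted 24-h peak (zeitgeber time, horizontal axis) for the 9 genes over 34 libraries; points are estimates ± SE, filled where the cosine was called, and the dark phase is shaded. The error of the peak time of *cyc*, 6.3 h, is not drawn. *per* and *tim* stand at ZT10.7 and ZT11.3 and *Clk* at ZT23.5.

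*takeout* varied more than any of the 8 clock genes. Its SD within groups was 2.66 on the log2 scale, the 4th largest of the 9996 genes, where the median gene had 0.34 and the clock genes 0.27 to 0.73. In WT-ALF it was 314 CPM at ZT3, 3.40 at ZT7, 3.43 at ZT11, 259 at ZT15, 9.41 at ZT19 and 22.0 at ZT23. In WT-TRF it was 9.50 CPM at ZT3, 9.2 at ZT7, 2.37 at ZT15, 1695 at ZT19 and 577 at ZT23, the library at ZT19 being the shallowest of the 34. In *Sk2*-ALF the values were 429, 313, 30.2, 257 and 588 CPM from ZT3 to ZT19. *to* was low at ZT11, where it was at 3.02 to 64.9 CPM (median 8.62), below the group mean in 5 of 5 groups and the lowest value of the group in 4, and high libraries occurred at each of the other time points. The cosine gave a peak at ZT21.1 ± 1.0 h and a peak-to-trough difference of 3.49 ± 0.98 (log2), which did not pass the test (adjusted p = 0.320, and 0.286 for time of day, edgeR). Summed marker levels of other tissues, centred within groups, had an r with *to* between -0.32 for fat body and 0.19 for gut over the 34 libraries; their part in its variation was not tested.

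The genes most like *to* across the 34 libraries followed it closely. Of 8027 other genes with a mean count of at least 50, 47 had an r of at least 0.8 with *to* after centring within groups, and 18 of these at least 0.9. The counts at 0.8 or more were 15 for *Pdp1*, 3 for *Clk*, 2 for *vri*, 1 for *cyc*, and 0 for *per*, *tim*, *cwo* and *cry*. The highest values were those of *CG11854* (r = 0.96), *CG4660* (r = 0.95) and *CG31522* (r = 0.95). *CG11854*, a *takeout*-like gene, is the next gene after *to* on the same strand (chr3R:25242020-25243262). It had 0 counts in WT-ALF at ZT7 and ZT23 and in WT-TRF at ZT15, where *to* was at 3.40, 22.0 and 2.37 CPM, and it was highest in WT-TRF at ZT19 (26.2 CPM), as was *to*. *CG31522* ran from 34.1 to 1202 CPM lowest in WT-ALF at ZT7 and highest in WT-TRF at ZT19. None of the 3 genes was called for time of day (adjusted p 0.200 to 0.374, edgeR).

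**Figure D3:**
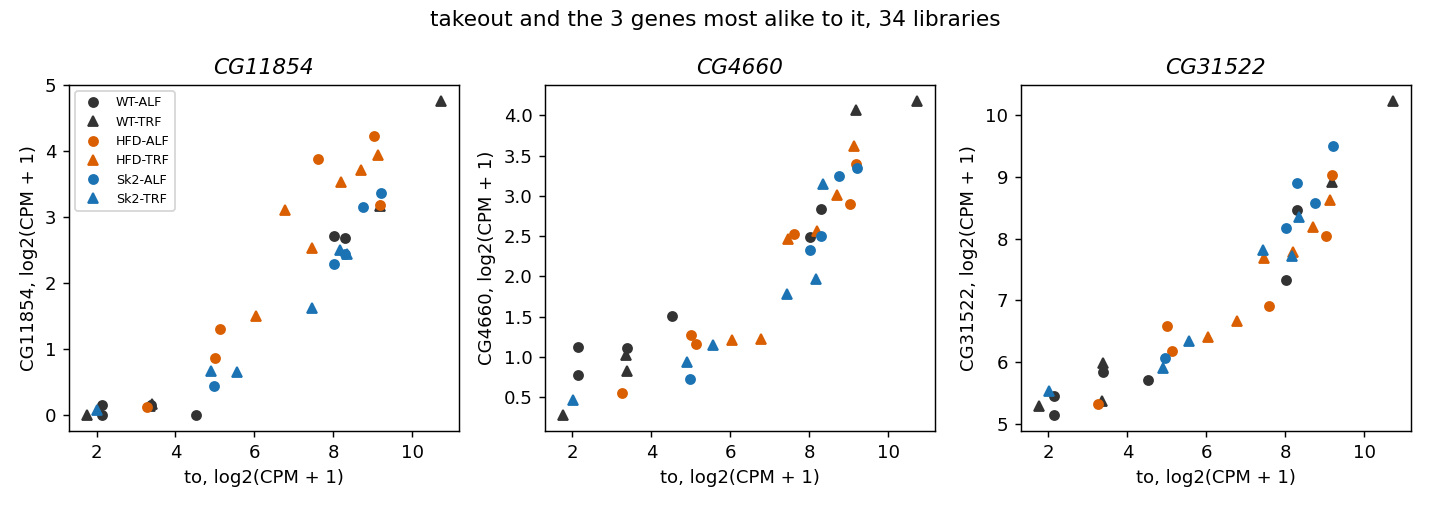
log2(CPM + 1) of *CG11854*, *CG4660* and *CG31522* (vertical axes) against that of *to* (horizontal axes); each point is 1 of 34 libraries, coloured by model, with circles for ALF and triangles for TRF. WT-TRF at ZT19 is the highest point in each panel, and at the low end of *to* the points are spread with little slope.

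The genes most like *Clk* were *Ugt35b* (r = 0.83), *bgm* (r = 0.81) and *ZnT77C* (r = 0.81), an annotated UDP-glycosyltransferase, an acyl-CoA synthetase and a zinc transporter. Their cosines were called with peaks at ZT23.5 ± 0.34 h, ZT23.6 ± 0.63 h and ZT23.3 ± 0.71 h, beside ZT23.5 for *Clk* (adjusted p = 1.98e-06, 0.00818 and 0.0201, edgeR). *Ugt35b*, at 21.5 to 307 CPM, had a peak-to-trough difference of 2.33 ± 0.23 (log2). Outside the 9 genes, those most like *tim* were *mib1* (r = 0.76), which codes for an E3 ubiquitin ligase of Notch signalling, *Cyp309a1* (r = 0.74) and *Cyp28d1* (r = 0.69), both of the cytochrome P450 family. The cosine was called for *mib1* (0.51 ± 0.12 log2, peak at ZT12.0 ± 0.83 h, adjusted p = 0.0451) and not for *Cyp309a1* (1.58 ± 0.37 log2, adjusted p = 0.0760) or *Cyp28d1* (0.50 ± 0.20 log2, adjusted p = 0.399). These genes were selected for their likeness, so that their peak times are a description.

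Within single groups, where each fit rests on 5 or 6 libraries, the rhythm was called for none of the 9 genes in any of the 6 groups (edgeR, adjusted p < 0.05), beside 0.08% of all genes in WT-ALF, 0.01% in WT-TRF, 0% in HFD-ALF and HFD-TRF, 0.04% in *Sk2*-ALF and 0.03% in *Sk2*-TRF. At an unadjusted p under 0.05 the counts were 1 of 9 genes for HFD-ALF, 2 for WT-ALF and 3 for each of WT-TRF, HFD-TRF, *Sk2*-ALF and *Sk2*-TRF. Of the 9996 genes, 718 passed at this level in HFD-ALF, 639 in WT-ALF, 664 in WT-TRF, 861 in HFD-TRF, 849 in *Sk2*-ALF and 401 in *Sk2*-TRF. With DESeq2, *tim* was called in WT-TRF (adjusted p = 0.0114) and *Clk* in *Sk2*-TRF (adjusted p = 0.0171), and over all 36 libraries edgeR called *Clk* in WT-TRF (adjusted p = 0.0449), a setting in which 412 genes were called in that group, against 1 in the 34 libraries. The peak-to-trough difference of *tim* ranged from 1.2 ± 0.55 in *Sk2*-ALF to 2.81 ± 0.56 in WT-TRF, and that of *Clk* from 1.08 ± 0.46 in HFD-TRF to 2.43 ± 0.61 in WT-TRF (log2). The fitted peak of *tim* lay between ZT9.74 ± 0.94 h in HFD-ALF and ZT12.9 ± 1.3 h in *Sk2*-TRF. That of *per* lay between ZT9.86 ± 1.5 h in HFD-ALF and ZT12.7 ± 2.3 h in *Sk2*-ALF, and that of *Clk* between ZT22.8 ± 1.6 h in HFD-ALF and ZT0.89 ± 1.6 h in HFD-TRF.

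**Figure D4:**
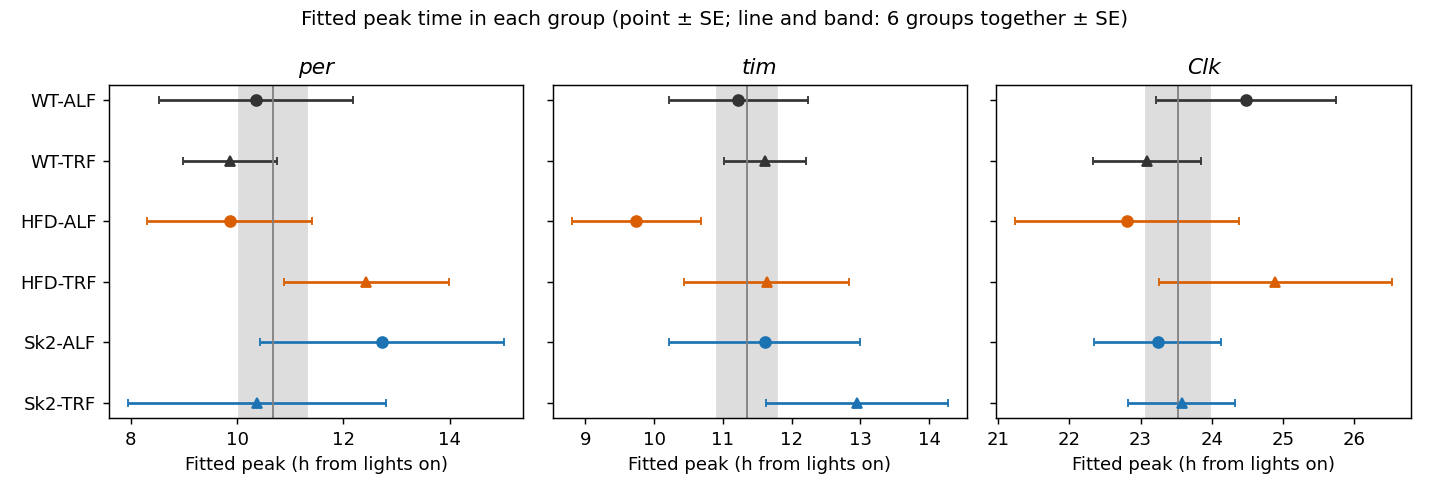
Time of the fitted 24-h peak (hours from lights on, with values past 24 for the next day) of *per*, *tim* and *Clk* in each of the 6 groups ± SE, with circles for ALF and triangles for TRF; the line and band give the peak over the 6 groups ± SE. The group peaks of *tim* span ZT9.74 to ZT12.9, and most error bars cross the common line.

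The feeding regimen was compared for phase and amplitude, since food is confined to the light phase under TRF. Averaged over the 3 models, *tim* peaked at ZT10.8 ± 0.64 h under ALF and ZT11.9 ± 0.54 h under TRF, a difference of 1.17 h with a 95% interval from -0.47 to 2.80 h. For *Clk* the peaks were ZT23.5 ± 0.69 h and ZT23.6 ± 0.54 h, a difference of 0.09 h with an interval from -1.63 to 1.81 h. For *per* they were ZT10.8 ± 1.1 h and ZT10.7 ± 0.81 h, a difference of -0.12 h with an interval from -2.79 to 2.56 h. The peak-to-trough difference was 1.5 under ALF and 1.79 under TRF for *tim*, 1.5 and 1.93 for *Clk* and 0.93 and 1.3 for *per* (log2), with intervals of the difference that include 0. For the other 6 genes the SE of the fitted peak was between 1.09 and 6.95 h in each regimen. The cosine differed between regimens for 0 of 9 genes (edgeR, adjusted p < 0.05, smallest unadjusted p = 0.275 for *tim*), beside 0% of all genes, and for 0 of 9 in each single model, beside 0% of all genes in each. At an unadjusted p under 0.05 there was 1 such case over these tests, *cwo* in *Sk2*. Of the 9996 genes, 346 passed at this level in the test averaged over models. In the single models 417 passed in WT, 343 in HFD and 311 in *Sk2*. Between models the cosine differed for 0 of 9 genes, beside 0.04% of all genes over the 3 models, 0% for HFD against WT and 0.03% for *Sk2* against WT. In each of these tests 0 of 9 had an unadjusted p under 0.05, beside 794, 907 and 560 of the 9996 genes in this order.

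The mean level over the day was compared between *Sk2* and WT. Under ALF, *tim*, *per*, *cwo* and *cyc* were higher in *Sk2* (4 of 9 genes, edgeR, adjusted p < 0.05), beside 22.8% of all genes. Under TRF, *Pdp1* was higher and *cry* was lower (2 of 9), beside 24.9% of all genes. Over all 36 libraries the counts turned around: 0 of 9 genes were called under ALF, beside 1664 genes in all, and 4 of 9 under TRF (*vri*, *Pdp1* and *cwo* higher, *cry* lower), beside 2973. The 8 clock genes had the same sign of difference in both regimens, and *to* had opposite signs.

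*tim* was at 268 to 523 CPM in *Sk2*-ALF (268, 437, 444, 523 and 278 CPM from ZT3 to ZT19) and at 65.9 to 312 CPM in WT-ALF (median 172). The groups overlapped, but at matched times *tim* was higher in *Sk2* at 5 of 5 time points under ALF, by 1.68- to 2.40-fold, and at 5 of 5 under TRF, by 1.10- to 3.11-fold. The log2 fold change was 1.06 ± 0.39 under ALF (adjusted p = 0.0484, edgeR) and 0.90 ± 0.40 under TRF (adjusted p = 0.0979). The mean of *Sk2*-ALF does not include ZT23, the low point of *tim*. When time point was added to the fit as a block, the difference was 0.96 under ALF (adjusted p = 1.49e-04) and 0.99 under TRF (adjusted p = 1.37e-04). In the excluded *Sk2*-ALF library at ZT23 *tim* was at 75.2 CPM, close to the 65.9 CPM of WT-ALF, and with all 36 libraries the difference under ALF did not pass (0.88, adjusted p = 0.149). The call also missed the threshold in 14 of 34 fits with 1 library left out (adjusted p up to 0.107, without *Sk2*-ALF at ZT15).

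*per* was at 23.1 to 43.3 CPM in *Sk2*-ALF (26, 26, 34.5, 43.3 and 23.1 CPM from ZT3 to ZT19) and at 11.3 to 24.7 CPM in WT-ALF (median 15.3). It was higher in *Sk2* at 5 of 5 matched times under ALF and at 4 of 5 under TRF. The log2 fold change was 0.90 ± 0.31 under ALF (adjusted p = 0.0350, edgeR) and 0.45 ± 0.31 under TRF (adjusted p = 0.327). For *per* too, the mean of *Sk2*-ALF does not include ZT23, its low point. With time point as a block the difference was 0.77 under ALF (adjusted p = 0.0116, edgeR) and 0.49 under TRF (adjusted p = 0.105). In the excluded *Sk2*-ALF library at ZT23 *per* was at 11.3 CPM, and in WT-ALF at ZT23 also at 11.3 CPM. *cwo* was at 70.6 to 171 CPM in *Sk2*-ALF (80.5, 120, 171, 110 and 70.6 CPM) and at 46.7 to 96.3 CPM in WT-ALF (median 73.2), with a log2 fold change of 0.63 ± 0.22 under ALF (adjusted p = 0.0337) and 0.54 ± 0.22 under TRF (adjusted p = 0.0717). Each of these calls was lost in 5 of 34 fits with 1 library left out, with adjusted p up to 0.104 for *per* (without *Sk2*-ALF at ZT15) and 0.141 for *cwo* (without *Sk2*-ALF at ZT11). Both were also lost over all 36 libraries (adjusted p = 0.113 and 0.0771).

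*cyc* was at 14.1 to 23.6 CPM in *Sk2*-ALF (18.9, 14.1, 15.1, 22.1 and 23.6 CPM) and at 9.41 to 14.7 CPM in WT-ALF (median 12.8), a log2 fold change of 0.57 ± 0.17 (adjusted p = 0.0121, edgeR). Under TRF the difference was 0.16 ± 0.17 (adjusted p = 0.541). The call under ALF held in 34 of 34 fits with 1 library left out. The pair of libraries that the study excluded had *cyc* at 75.2 CPM (WT-TRF) and 47.2 CPM (*Sk2*-ALF), above the highest of the 34 libraries used (26 CPM). With them the difference under ALF was 0.92 (adjusted p = 0.0507).

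*cry* went the other way. It was at 26.9 to 78.5 CPM in *Sk2*-ALF (78.5, 30.9, 51.8, 26.9 and 34.5 CPM) against 38.6 to 95.7 CPM in WT-ALF (median 74.8), and at 18 to 66.9 CPM in *Sk2*-TRF (median 41.7) against 108, 83.0, 62.3, 71.7 and 89.0 CPM in WT-TRF. It was lower in *Sk2* at 5 of 5 matched times under ALF and at 5 of 5 under TRF. The log2 fold change was -1.02 ± 0.27 under TRF (2.03-fold lower, adjusted p = 0.00624, edgeR), which held in 34 of 34 fits with 1 library left out, and -0.70 ± 0.28 under ALF (adjusted p = 0.0641). Blocking on time point, the difference under ALF passed as well (-0.75, adjusted p = 0.00939).

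*Pdp1* was at 571 to 1297 CPM in *Sk2*-TRF (median 660), the highest at ZT15, and at 439, 589, 617, 505 and 401 CPM in WT-TRF. It was higher in *Sk2* at 5 of 5 matched times under TRF, with a log2 fold change of 0.61 ± 0.21 (adjusted p = 0.0317, edgeR). The call was lost in 4 of 34 fits with 1 library left out. Without *Sk2*-TRF at ZT15 the log2 fold change fell to 0.39 (adjusted p = 0.149, edgeR), the highest adjusted p of these fits. Under ALF the difference was 0.27 ± 0.21 (adjusted p = 0.381). *vri* had a log2 fold change of 0.51 ± 0.21 under ALF (adjusted p = 0.0758) and 0.48 ± 0.21 under TRF (adjusted p = 0.0923). *Clk*, the gene that VRI represses, had -0.44 ± 0.42 and -0.52 ± 0.42 (adjusted p = 0.494 and 0.396), and *to* had 1.67 ± 1.3 under ALF and -1.67 ± 1.3 under TRF (adjusted p = 0.384 and 0.379).

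When blocked on time point, 6 of 9 genes were called between *Sk2* and WT under ALF (*per*, *tim*, *cyc*, *vri* and *cwo* higher, *cry* lower) and 3 of 9 under TRF (*tim* and *Pdp1* higher, *cry* lower), beside 2347 and 2599 of the 9996 genes. Other measures moved with the model. Of 10 flight muscle markers, 5 were lower in *Sk2* under ALF, and under TRF 3 were lower and 1 higher, while their summed level was 21404 to 34343 CPM in *Sk2*-ALF and 27010 to 48097 CPM in WT-ALF. Of 5 markers of photoreceptors, cells that hold clock proteins themselves, 1 was higher in *Sk2* under ALF (*norpA*, 0.70 log2, adjusted p = 0.00469, edgeR) and 0 under TRF. *ninaE*, *trp*, *Arr1* and *Arr2* were not called under ALF (adjusted p 0.436 to 0.838, edgeR). The rhodopsin gene *ninaE* was at 0.08 to 134 CPM over the libraries. Library totals were also higher in *Sk2* than in WT. The part of these in the differences was not tested.

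**Figure D5:**
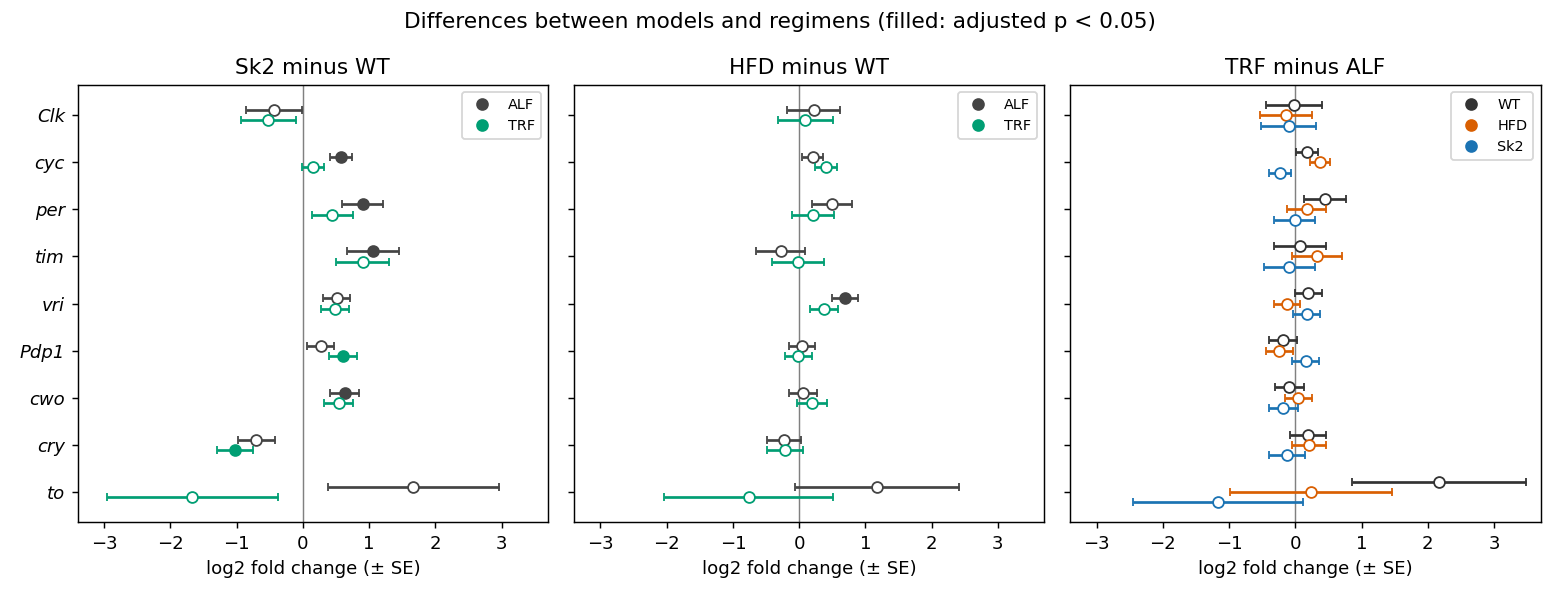
log2 fold change ± SE of the 9 genes for *Sk2* minus WT and HFD minus WT (grey for ALF, green for TRF) and for TRF minus ALF (WT, HFD and *Sk2*); points are filled where the adjusted p was under 0.05 (edgeR). The filled points are *cyc*, *per*, *tim* and *cwo* (ALF) and *Pdp1* and *cry* (TRF) for *Sk2* minus WT, and *vri* (ALF) for HFD minus WT.

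Between HFD and WT, 1 of the 9 genes differed. Under ALF, *vri* was higher in HFD than in WT (1 of 9 genes, beside 16.6% of all genes). It was at 381 to 777 CPM in HFD-ALF (median 508) and 251 to 396 CPM in WT-ALF (median 336), so that the groups overlapped in their extremes, and it was higher at 6 of 6 matched times. The WT-ALF libraries are also those of the *Sk2* contrast, where *vri* did not pass. The log2 fold change was 0.70 ± 0.20 (1.62-fold, adjusted p = 0.0164, edgeR), with adjusted p from 0.00635 to 0.0349 in the 34 fits with 1 library left out. Of 6 neuron markers, 5 were also higher in HFD-ALF (summed 139 to 779 CPM, against 88.8 to 181 CPM in WT-ALF), and their part in the difference was not tested. Under TRF the difference in *vri* was 0.38 ± 0.21 (adjusted p = 0.278, edgeR), and 0 of 9 genes were called between HFD-TRF and WT-TRF, beside 10.5% of all genes. At an unadjusted p under 0.05 there was 1 of 9 genes (*cyc*, 0.41 ± 0.17, adjusted p = 0.123, edgeR), beside 2400 of the 9996 genes. With the excluded libraries included the difference of *cyc* turned to -0.39 (adjusted p = 0.456).

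Between TRF and ALF, 0 of 9 genes were called in each of the 3 models (edgeR, adjusted p < 0.05), beside 0.06% of all genes in HFD, 0.08% in *Sk2* and 0% in WT. Over the 8 clock genes and 3 models the log2 fold changes lay between -0.24 and 0.45, and their 95% intervals reached from -0.91 to 1.07 at the widest. These intervals include the spread over the day. With time point as a block the SE of *tim* in WT, HFD and *Sk2* went from 0.39, 0.37 and 0.39 to 0.17, 0.16 and 0.17. For *Clk* it went from 0.42, 0.39 and 0.41 to 0.24, 0.22 and 0.23, and for *cyc* from 0.17, 0.16 and 0.16 to 0.18, 0.17 and 0.17. In the fit that leaves out time point, the smallest p was that of *cyc* in HFD. It was at 11.3 to 18.3 CPM under ALF (median 14.1) and 13.2 to 26 CPM under TRF (median 17.3). The log2 fold change of *cyc* was 0.37 ± 0.16 (unadjusted p = 0.0240, adjusted p = 0.286, edgeR). In the same fit *cyc* in HFD was the only one of 27 cases past the threshold of the study. That threshold is an unadjusted p of at most 0.05 with a minimum fold change. In WT, HFD and *Sk2*, 5.96%, 11.3% and 6.73% of all genes passed it. With time point as a block, *tim* in HFD passed it as well (0.37 ± 0.16 log2, unadjusted p = 0.0307, adjusted p = 0.310, edgeR). The unadjusted p of *cyc* in HFD was then 0.0361 (adjusted p = 0.323). For *to* the differences were 2.17 ± 1.3 in WT, 0.24 ± 1.2 in HFD and -1.17 ± 1.3 in *Sk2* (log2, adjusted p = 0.715, 0.963 and 0.833), with a 95% interval from -0.40 to 4.74 in WT.

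A difference between models in the effect of TRF was called for 0 of 9 genes in each of 3 tests (edgeR, adjusted p < 0.05). Beside this stood 0% of all genes for HFD against WT, 0.01% for *Sk2* against WT and 0.04% for *Sk2* against HFD. The 95% intervals were wide. For *Sk2* against WT they ran from -1.24 to 0.93 for *tim* and from -6.93 to 0.25 for *to* (log2). With time point as a block the SE of this difference went from 0.55 to 0.24 for *tim* and from 1.83 to 1.99 for *to*. Without the block there was 1 case at an unadjusted p under 0.05, *cyc* between *Sk2* and HFD (-0.61 ± 0.23, adjusted p = 0.298, edgeR). Of the 9996 genes, 1250 passed at this level for *Sk2* against HFD, 798 for HFD against WT and 688 for *Sk2* against WT.

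The wider clock machinery was read against the 2.31% of all genes called for time of day. Of 11 kinases, phosphatases and turnover factors of PER and TIM, such as *dbt* (listed as *dco*), *sgg* and *slmb*, 0 were called for time of day, and their median peak-to-trough difference was 0.10 (log2). Of 11 cofactors and paralogues, of which 10 were tested, 1 was called. This was *kay*, the fly Fos, at 289 to 938 CPM, with a fitted peak at ZT12.3 ± 1.0 h and a peak-to-trough difference of 0.64 ± 0.18 (log2, adjusted p = 0.0239 for time of day and 0.0953 for the cosine, edgeR). Of 7 output genes other than *to*, 0 were called. *Pdf*, the neuropeptide gene of the brain's clock neurons, and its receptor gene *Pdfr* were not called for time of day. *Pdf* was at 0 to 13.3 CPM, with 0 counts in 5 libraries, and *Pdfr* at 8.26 to 28.5 CPM. Both were called higher in *Sk2* than in WT under ALF (adjusted p = 0.0286 and 0.0230, edgeR), and between HFD and WT under ALF *Pdf* was called higher (adjusted p = 0.0200) and *Pdfr* lower (-0.78 log2, adjusted p = 0.00128).

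Of 13 further genes of the *takeout* family, 12 were tested, 1 was called for time of day and 2 for the cosine. *CG14661*, at 29.4 to 264 CPM, had a peak at ZT21.0 ± 0.55 h and a peak-to-trough difference of 1.58 ± 0.24 (log2, adjusted p = 8.39e-04 for the cosine and 0.00115 for time of day, edgeR), and *CG31189*, at 3.84 to 15 CPM, had a peak at ZT23.1 ± 0.69 h and a difference of 1.03 ± 0.20 (adjusted p = 0.0134 for the cosine). They are named after their values were seen. The fitted peak of *to*, which was not called, was at ZT21.1. Their r with *to* was 0.39 and 0.54, against 0.96 for *CG11854*.

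The lists were also read in the contrasts between models, where the shares of all genes called were 22.8% and 24.9% for *Sk2* under ALF and TRF and 16.6% and 10.5% for HFD. Between *Sk2* and WT under ALF, 0 of the 11 kinases, phosphatases and turnover factors were called, and *Atx2*, an activator of *per* translation, and *Eip75B* (-0.31 and -0.39 log2, adjusted p = 0.0118 and 0.0171) were the 2 called of the 10 cofactors tested. Under TRF *sgg* was higher (0.36 log2, adjusted p = 0.0488) and *mts* lower (-0.47 log2, adjusted p = 0.0490) among the former, and *Bdbt*, a partner of the kinase DBT, was higher (0.64 log2, adjusted p = 0.00216) and *Atx2* lower (-0.30 log2, adjusted p = 0.0138) among the latter. Between HFD and WT, 1 of these 21 genes was called under ALF (*Bdbt*, -0.41 log2, adjusted p = 0.0463) and 0 under TRF. Of the 7 output genes, 2 were higher in HFD under ALF (*Slob* and *na*) and 0 were called in the other 3 contrasts. Of the 12 *takeout*-like genes tested, 2 were higher and 1 lower in *Sk2* under ALF, 1 was higher in *Sk2* under TRF, 1 was higher in HFD under ALF and 0 were called in HFD under TRF.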

How the data were processed

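RNA of IFM was measured by mRNA sequencing. The authors made raw counts per gene and deposited them as 1 table of 36 libraries: reads were counted over exons on the reverse strand with featureCounts 1.5.0-p1 on dm6. The sources name different STAR versions and builds for the alignment.

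Tests were run with edgeR 4.0.16 under R 4.3.3, using filterByExpr, TMM, glmQLFit and glmQLFTest, over 34 libraries: time of day as a factor or as a 24-h cosine with 6 group means, group means alone, and a mean and cosine per group. P-values were adjusted by Benjamini-Hochberg over 9996 genes. CPM used TMM library sizes, with a prior count of 2 on the log2 scale. CPM of the excluded libraries come from a normalization of all 36. SEs of peak time and amplitude are approximate (delta method), and 95% intervals are ± 1.96 SE. Levels were compared between genes per exon length.

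The 9 genes and all lists were chosen with earlier results of these data known. Named genes are the 9, members of the clock lists called for time of day, and the 3 genes with the highest r to each of *tim*, *Clk* and *to*; others were named after their values were seen. Alternatives were all 36 libraries, 32 libraries, RLE size factors, other filters, DESeq2 1.42.0, a block for time point, fewer groups, and each library left out.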

Additional observations from a re-analysis of the deposited data

Results flagged for a closer look

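In 54 combinations of gene and group, 3 libraries stood apart from the others of their group on the log2 scale by Dixon's test, and chance flags about 1 in 20 groups. *per* in HFD-ALF was 6.80 CPM at ZT23, where the other 5 libraries were at 21.3 to 37 CPM. *cyc* in WT-ALF was 9.41 CPM at ZT19, where the others were at 12.4 to 14.7 CPM. *to* in *Sk2*-ALF was 30.2 CPM at ZT11, where the others were at 257 to 588 CPM. ZT23 and ZT11 are also the time points at which *per* and *to* were lowest over the groups.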

How the results depend on the processing

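The 9 genes were refitted under each alternative. Calls for time of day (4 of 9) went to 2 over all 36 libraries and 2 without WT-ALF, without WT-TRF or without *Sk2*-ALF, to 1 in ALF groups only and to 0 in TRF groups only. Calls for the cosine (3 of 9) went to 0 in ALF groups only and were *tim* and *Clk* in TRF groups only. *per* lost its cosine call in 6 of 14 settings other than leaving 1 library out. Model contrasts gave 7 calls over 36 cases, and 4 to 9 with 1 library left out, with 4 without WT-ALF at ZT19 or at ZT23. Rhythm by group gave 0 calls, 1 over all 36 libraries and 2 with DESeq2. Past the study's threshold for TRF was 1 case, 2 with the time point as a replicate block (*cyc* and *tim* in HFD) and 0 to 2 with 1 library left out. Over all 36 libraries *cyc* between HFD-TRF and WT-TRF turned from 0.41 to -0.39 (log2). All other calls over the 9 genes kept their count within 1.5 times. Over all genes, time of day gave 231 calls, 702 with DESeq2, 0 in TRF groups only and 92 to 276 with 1 library left out, and the cosine gave 178, 448 and (ALF groups only) 4. HFD against WT under ALF gave 1659 calls and 982 with at least 10 counts in every library. TRF in HFD gave 6 calls, 52 with DESeq2 and 0 to 101 with 1 library left out. The causes were not tested. Libraries of the same time point were not taken as paired, since in none of 7 comparisons had every pair an r over 0.1: this held for 1 to 3 of 5 or 6 pairs, with a mean r from -0.05 to 0.21, highest between *Sk2*-TRF and *Sk2*-ALF (3 of 5 pairs, mean -0.05 at other times). The block changed the counts of calls as given with the *Sk2* contrasts and no call between HFD and WT. No member was lost to a filter.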
